A study of Mus musculus with 6 samples.

Results

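The glandular kallikreins are a family of secreted serine proteases, and 10 genes of the mouse family were followed here in cultured pancreatic acini: Klk1, Klk1b3, Klk1b4, Klk1b5, Klk1b8, Klk1b9, Klk1b11, Klk1b24, Klk1b26 and Klk1b27. They were picked by gene name from a table of raw counts that lists 56953 genes. Because their levels in these libraries and in all 3 group comparisons were known when they were picked, the levels and fold changes below are descriptions with their errors, and no p-value is attached to them. Bulk RNA-seq was done on 6 cultures of acini taken from the mouse pancreas and held for 3 days in Matrigel, an ex vivo assay of acinar-to-ductal metaplasia (ADM) where the cells lose their secretory character and take on a duct-like form. The 2 WT cultures were wild type for Dkk3. The 2 DD cultures came from Dkk3 knockout mice, and the 2 DD + rDKK3 cultures from Dkk3 knockout mice were given recombinant soluble DKK3, a secreted glycoprotein. The knockout is present in every cell of the animal from conception and was not restricted to acinar cells. All groups shared the same medium, which held serum, a trypsin inhibitor and the glucocorticoid dexamethasone. The labelled ages were 10 and 11 weeks in WT, 12 and 13 weeks in DD, and 14 and 15 weeks in DD + rDKK3, so age and group cannot be told apart. All donors were labelled male except that of WT 2, which was labelled female. Fits without WT 2 therefore compare donors labelled male only, with WT 1 as the only WT library. The part of sex was not tested. Taken as they stand, the ages give the 2 cultures of each group separate donors. They rise by 1 week from each listed sample to the next, however, and whether they were recorded for each animal is not known. Same-numbered DD and DD + rDKK3 samples have matching titles, but no label says that they share a donor, and they were not treated as pairs. The spread reported here is that between the 2 cultures of a group.

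Klk1 is tissue kallikrein, the protease that cuts kininogen to release kinins, short peptides that act on the bradykinin receptors to widen vessels and raise their permeability. It is made in the exocrine pancreas, the salivary glands and the kidney. The Klk1b genes are copies of Klk1 that multiplied in rodents, and they are best known from the mouse submandibular gland, where androgen raises many of them. Klk1b3 and Klk1b4 encode the gamma and alpha subunits of a larger secreted complex, Klk1b9 encodes an epidermal growth factor-binding protein, and Klk1b26 encodes a protease that converts prorenin to renin.

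The 10 genes lie in a cluster on the plus strand of chromosome 7 (GRCm39), within 279 kb. In the order of the chromosome they are Klk1b8 (chr7:43600088-43604365), Klk1b9 (chr7:43625485-43629800), Klk1b11 (chr7:43645301-43649299), Klk1b26 (chr7:43661592-43666392), Klk1b27 (chr7:43701714-43706136), Klk1b24 (chr7:43837660-43841879), Klk1b3 (chr7:43847615-43851776), Klk1b4 (chr7:43856859-43861178), Klk1b5 (chr7:43865369-43870127) and Klk1 (chr7:43874784-43879042). Klk1b24, Klk1b3, Klk1b4, Klk1b5 and Klk1 form a tight run with gaps of 4.191 to 5.736 kb. Among the members, a gap of 131.5 kb separates Klk1b27 from that run. Family genes and pseudogenes outside the 10 lie within it, among them Klk1b21, Klk1b22 and Klk1b16. Dkk3 is on the same chromosome, 67.84 Mb beyond the end of Klk1.

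The copies are close enough in sequence for short reads to be ambiguous, and exon 4 shows how close. All 10 genes have 5 exons, exon 4 is 137 bases long and wholly coding in each, and 78 of its positions (56.9%) hold the same base in all 10. Exon 4 is printed from the reference genome for Klk1, for the copy nearest to it there (Klk1b5), for a copy with a long identical stretch (Klk1b3) and for 3 more distant copies that resemble each other (Klk1b26, Klk1b24 and Klk1b27). Capitals in a Klk1b line mark bases that differ from Klk1, and capitals in the Klk1 line mark the 3 bases that no other member has.
Klk1: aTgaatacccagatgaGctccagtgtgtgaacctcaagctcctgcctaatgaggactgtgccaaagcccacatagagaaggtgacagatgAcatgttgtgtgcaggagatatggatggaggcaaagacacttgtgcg
Klk1b5: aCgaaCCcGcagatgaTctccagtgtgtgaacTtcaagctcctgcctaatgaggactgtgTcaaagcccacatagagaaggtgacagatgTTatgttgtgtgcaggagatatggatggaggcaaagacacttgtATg
Klk1b3: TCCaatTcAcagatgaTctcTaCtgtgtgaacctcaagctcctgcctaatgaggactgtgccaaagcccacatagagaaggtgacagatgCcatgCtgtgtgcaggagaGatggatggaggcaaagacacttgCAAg
Klk1b26: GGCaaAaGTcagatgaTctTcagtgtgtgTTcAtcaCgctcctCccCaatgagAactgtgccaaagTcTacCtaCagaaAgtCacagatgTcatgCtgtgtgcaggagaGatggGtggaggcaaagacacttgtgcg
Klk1b24: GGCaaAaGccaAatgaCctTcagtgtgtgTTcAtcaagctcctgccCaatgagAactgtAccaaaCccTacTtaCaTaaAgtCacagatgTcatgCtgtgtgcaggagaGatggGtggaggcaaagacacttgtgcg
Klk1b27: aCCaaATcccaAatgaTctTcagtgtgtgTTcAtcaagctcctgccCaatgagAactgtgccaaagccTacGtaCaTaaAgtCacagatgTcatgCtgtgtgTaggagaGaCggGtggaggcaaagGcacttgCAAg
These exons lie on the plus strand at chr7:43878335-43878471 (Klk1), chr7:43869415-43869551 (Klk1b5), chr7:43851062-43851198 (Klk1b3), chr7:43665683-43665819 (Klk1b26), chr7:43841168-43841304 (Klk1b24) and chr7:43705429-43705565 (Klk1b27). Klk1b5 differs from Klk1 at 11 positions and Klk1b3 at 14, and Klk1b3 carries an unbroken run of 67 bases equal to Klk1, longer than a read of 50 bases. Klk1b26 and Klk1b24 each differ from Klk1 at 25 positions and from each other at 10. Klk1b8 is the most distant from Klk1 in this exon, with 30 differences.

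Over whole transcripts, the share of 50-base windows that also occur exactly in the Klk1 transcript was 12.7% for Klk1b5, 10.1% for Klk1b3, 7.11% for Klk1b4, 6.88% for Klk1b24, 6.63% for Klk1b11, 4.02% for Klk1b9, 3.93% for Klk1b27, 2.47% for Klk1b8 and 0% for Klk1b26. Of the 905 windows of Klk1, 28.4% occur in another gene of the family. These shares are for single windows. The reads were paired, so a mate in an unshared stretch could still tell copies apart, and shares for pairs were not measured. The coding sequences are 82.89% (Klk1b8) to 95.27% (Klk1b5) identical to that of Klk1. The authors ignored secondary alignments, so a read that matched several copies could still be counted once at its primary position. Counts of single copies are therefore uncertain, most of all for a low copy beside the far more abundant Klk1.

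The copies also share a short element upstream of the coding region. RefSeq promoter windows (250 bases before to 50 after the annotated start, from a table of the GRCm38.p6 build, each found at a single place in GRCm39) were available for all 10 genes. The letters TTTAAA, which read the same on both strands, were present in 9 of 10 windows, against 13.2% of the 32851 promoters in that table. TATAAA was in 0 of 10, against 13.6% of all promoters. The last 100 bases before the annotated start are printed for Klk1, for the 3 most abundant copies and for Klk1b26, with TTTAAA in capitals.
Klk1: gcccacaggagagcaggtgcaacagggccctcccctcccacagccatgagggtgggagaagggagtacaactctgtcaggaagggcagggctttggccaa
Klk1b3: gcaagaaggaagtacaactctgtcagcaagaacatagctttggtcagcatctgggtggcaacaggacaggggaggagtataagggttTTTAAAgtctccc
Klk1b4: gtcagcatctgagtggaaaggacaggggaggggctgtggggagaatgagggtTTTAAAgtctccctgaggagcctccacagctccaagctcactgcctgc
Klk1b5: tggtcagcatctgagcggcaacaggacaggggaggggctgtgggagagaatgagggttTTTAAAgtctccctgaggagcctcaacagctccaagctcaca
Klk1b26: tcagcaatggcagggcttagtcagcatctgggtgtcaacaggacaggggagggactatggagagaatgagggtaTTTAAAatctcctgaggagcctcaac
On the plus strand of GRCm39 these are chr7:43874684-43874783 (Klk1), chr7:43847515-43847614 (Klk1b3), chr7:43856757-43856856 (Klk1b4), chr7:43865798-43865897 (Klk1b5) and chr7:43662002-43662101 (Klk1b26). Counted from the annotated start, TTTAAA began at -13 in Klk1b3 and at -48 in Klk1b4, with the others of the 9 between them. Counted from the start codon instead, the nearest TTTAAA began 68 bases upstream in Klk1, Klk1b11, Klk1b24, Klk1b26 and Klk1b27 and 69 bases upstream in Klk1b3, Klk1b4, Klk1b5, Klk1b8 and Klk1b9. The Klk1 window lacks the letters because its annotated start lies further out, so that its TTTAAA begins 51 bases after that start, just past the edge of the window. Of the other motifs searched on both strands, CACCTG was in 10 of 10 windows (20.2% of all promoters), TGTTCT in 2 of 10 (19% of all promoters) and CAGCTG in 1 of 10 (16.3% of all promoters). TTTAAA was added to the search after these promoters had been read, and the windows belong to copied genes and are not independent. The shares of all promoters are therefore given for scale and test no enrichment. A match of letters is a description and does not show that a factor binds.

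Library totals were 12018473 to 19750401 counts, and a floor of 3 counts corresponded to 0.142 to 0.2947 CPM (counts scaled to library depth by TMM, the trimmed mean of M values). For the acinar label, 9 of 9 acinar markers passed the low-count filter, with a summed level of 82760 to 142200 CPM, against 1376 to 2441 CPM for 8 ductal markers. Fibroblast and stellate markers (8 of 8 passing) summed to 37.37 to 110.1 CPM in WT, 59.39 and 724.8 in DD, with 145.1 and 813.6 in DD + rDKK3. Macrophage markers (6 of 6 passing) summed to 56.89 to 223.6 CPM, and DD 2 and DD + rDKK3 2 were highest in both lists. Of 11 salivary gland markers 0 passed the filter, 8 were at 0 counts in all 6 libraries (among them the defining Smgc, Bpifa2 and Dcpp1 to Dcpp3), and the list summed to 0.09465 to 0.4115 CPM. Dkk3 itself had 10 and 1 counts in WT libraries, 11 and 9 counts in DD and 5 and 5 counts in DD + rDKK3. The knockout replaces exon 2 and a further product of the gene remains, so these gene-level counts do not check the genotype labels.

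All 10 members passed the low-count filter, and Klk1 dominated the family. Klk1 alone held 93.53% to 94.72% of the counts of the 10 members in each library, and the 10 together took 0.1656% to 0.278% of all library counts. Per kilobase of transcript, Klk1 averaged 2257 CPM ± 454 (SD over 6 libraries), and the next gene, Klk1b3, 46.13 ± 10.2. Klk1b4 averaged 29.14 ± 8.29, Klk1b5 24.63 ± 5.61, and Klk1b11 15.37 ± 4.69 CPM per kilobase. Klk1b26 (8.76 ± 2.5), Klk1b24 (4.629 ± 1.81), Klk1b8 (2.498 ± 0.441) and Klk1b27 (2.083 ± 0.928) followed on the same scale, and Klk1b9 was lowest at 0.6504 ± 0.231. Klk1 and Klk1b9 stood apart from their neighbours, whereas each neighbouring pair from Klk1b3 down to Klk1b27 had overlapping ranges of mean ± SD. These SDs include the differences between groups, which the genes share. The group means per kilobase of transcript had the same order of genes in WT, DD and DD + rDKK3. Klk1b5 and Klk1b26 have long annotated first exons (602 and 598 bases), and per kilobase of coding sequence Klk1b5 (43.76 ± 9.96 CPM) came ahead of Klk1b4 (34.94 ± 9.94). The 4 most abundant members were all in the run that ends with Klk1.

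Klk1b9 was the member nearest the edge of detection, with 5 to 15 counts per library and 57 in all. Just outside the chosen set, Klk1b16 had 3 to 14 counts per library and 52 in all, and it passed the same filter. It was at 0.393 and 0.2107 CPM in WT, 0.4259 and 0.6467 in DD, with 0.7394 and 0.5916 in DD + rDKK3. Unlike most members, it was thus higher in DD than in WT, though near the floor. Klk1b21 had 25 counts in all. Of the 14 further Klk1b rows, 10 are pseudogenes and 13 did not pass the filter. The related kallikreins Klk4 to Klk15, which lie in the same region of the genome but form a separate branch, had at most 4 counts in any library, and 0 of 12 passed.

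**Figure D1:**
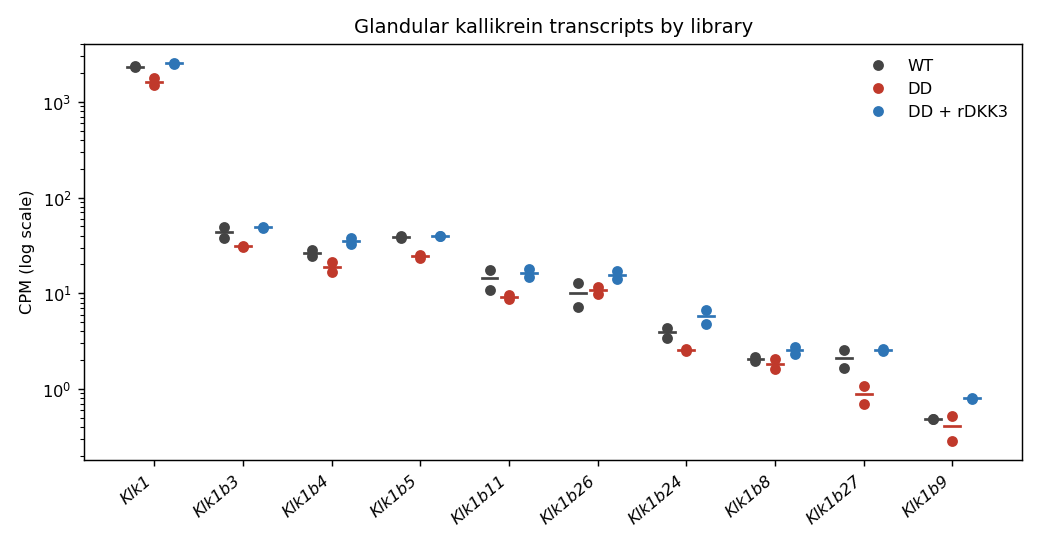
CPM of each member in the 6 libraries on a log scale. Points are single libraries, short bars are group means, and genes are ordered by mean level per kilobase. Klk1 sits between 1482 and 2543 CPM, far above the copies, and for 7 of 10 genes the 2 DD points lie below all other points.

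Wild-type and Dkk3 knockout acini were compared first, to ask what loss of DKK3 changed. Klk1 was at 2284 and 2370 CPM in WT and at 1751 and 1482 CPM in DD. Both DD libraries lay below both WT libraries, and the mean was 2327 ± 60.8 in WT and 1617 ± 190 in DD (SD, n = 2 each). The log2 fold change was -0.53 (SE 0.184), a DD level of 0.695 of WT. With counts scaled to library totals alone, which put the median of all genes at 0.219 rather than 0.016, it was -0.32. In bulk RNA, fewer acinar cells and less RNA per cell cannot be told apart.

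The 2 genes for the gamma and alpha subunits were lower in DD by about as much. Klk1b3 was at 37.53 and 49.52 CPM in WT and 30.38 and 31.33 in DD, a log2 fold change of -0.50 (SE 0.167). Klk1b4 was at 24.36 and 28.24 CPM in WT and 21.15 and 16.87 in DD, a log2 fold change of -0.47 (SE 0.18). For both genes the groups did not overlap, although the WT libraries of Klk1b3 were far apart and its value shrank to -0.28 without WT 2.

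Klk1b5, the copy most like Klk1 in sequence, was at 39.69 and 38.14 CPM in WT and 25.03 and 23.46 in DD, with a log2 fold change of -0.68 (SE 0.137). Its replicates lay close together in both groups. Klk1b11 was at 10.9 and 17.7 CPM in WT and 9.607 and 8.818 in DD, with a log2 fold change of -0.64 (SE 0.257), which became -0.24 without WT 2. Klk1b24 was at 3.438 and 4.355 CPM in WT and 2.65 and 2.469 in DD (log2 fold change -0.61, SE 0.298).

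Klk1b27 had the lowest DD level relative to WT, on few counts. It was at 1.67 and 2.529 CPM in WT, from 17 and 36 counts, and at 1.088 and 0.7055 CPM in DD, from 23 and 12 counts. The log2 fold change was -1.22 (SE 0.403).

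The remaining 3 members overlapped between the groups. Klk1b8 was at 1.965 and 2.177 CPM in WT and 1.609 and 2.058 in DD, and Klk1b9 at 0.4912 and 0.4917 CPM in WT and 0.2839 and 0.5291 in DD. Klk1b26, the prorenin-converting enzyme, was at 7.171 and 12.78 CPM in WT and 9.891 and 11.7 in DD, so that both DD libraries fell between the 2 WT libraries. Its log2 fold change of 0.10 (SE 0.286) became -0.23 without WT 1, 0.59 without WT 2 and -0.025 without DD 2. Klk1b8 (-0.18, SE 0.332) and Klk1b9 (-0.29, SE 0.591) also changed sign when DD 1 was left out, to 0.011 and 0.13, and Klk1b8 was at 0.015 with library totals alone.

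Over the 10 members, 9 were lower and 1 higher in DD (median log2 fold change -0.51), while 48.3% of the 14738 genes tested were lower and their median was 0.016. The members' median was -0.32 without WT 2, the only library from a donor labelled female, and -0.31 with library totals alone. For 7 members the DD libraries were below the WT libraries without overlap, as was the case for 19.7% of all genes tested. At an adjusted p under 0.05 (edgeR quasi-likelihood test, Benjamini-Hochberg), 0 members were called, beside 0.0407% of all genes. At an unadjusted p under 0.05 there were 6 members, beside 8.26% of all genes. DESeq2 called 2 members (Klk1 and Klk1b5), beside 0.601% of the 13309 genes to which it gave an adjusted p, and limma-voom called 0. Since these values helped to choose the members, nothing is read from those counts.

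The knockout acini with and without the recombinant protein were compared next, to ask what adding DKK3 back changed. Every member was higher in DD + rDKK3, and no member overlapped between the groups. Klk1 was at 2543 and 2487 CPM in DD + rDKK3, against 1751 and 1482 in DD. The mean was 2515 ± 39.3 (SD, n = 2) and the log2 fold change 0.64 (SE 0.185), a level of 1.56 times that of DD.

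Klk1b3 was at 47.85 and 49.43 CPM with the protein and 30.38 and 31.33 without it, a log2 fold change of 0.66 (SE 0.166). Klk1b4 was at 32.75 and 37.65 CPM against 21.15 and 16.87, a log2 fold change of 0.89 (SE 0.178). Klk1b5 was at 39.24 and 40.01 CPM against 25.03 and 23.46, a log2 fold change of 0.71 (SE 0.136). In these 3 copies the distance between the groups was several times the distance between replicates, least so in Klk1b4, whose replicates lay further apart.

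The less abundant copies were higher too, with wider errors. Klk1b11 was at 17.9 and 14.68 CPM with the protein, against 9.607 and 8.818 (log2 fold change 0.82, SE 0.254). Klk1b24 was at 4.753 and 6.723 CPM against 2.65 and 2.469 (log2 fold change 1.16, SE 0.291), and Klk1b27 at 2.482 and 2.635 CPM against 1.088 and 0.7055 (log2 fold change 1.49, SE 0.393). Klk1b26 was at 14.05 and 17.26 CPM against 9.891 and 11.7 (0.54, SE 0.28).

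The other 2 members rested on few counts. Klk1b8 was at 2.324 and 2.743 CPM with the protein and at 1.609 and 2.058 CPM without it (log2 fold change 0.47, SE 0.321), and its fold change was 0.28 without DD 1. Klk1b9 had 15 and 15 counts with the protein and 6 and 9 without it (log2 fold change 0.98, SE 0.539), with 0.57 without DD 1 and 1.47 without DD 2.

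The median log2 fold change of the members was 0.76, against -0.0028 over all genes tested, of which 49.5% were higher. All 10 members were higher without overlap, as were 15.1% of all genes. The edgeR test called 0 members and 0% of all genes at an adjusted p under 0.05, and 7 members and 1.98% of all genes had an unadjusted p under 0.05. DESeq2 called 1 member (Klk1), beside 0.0339% of its genes, limma-voom called 0, and edgeR without the low-count filter called 1 (Klk1b4), beside 0.275% of its genes. The comparison shares the DD libraries with the one before it, so a low value in DD enters both. Klk1, Klk1b3, Klk1b4, Klk1b5, Klk1b11, Klk1b24 and Klk1b27 had both DD libraries below all 4 others, a pattern seen in 3.66% of all genes tested. The values of this comparison were also known when the members were chosen, so nothing is read from these counts either.

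Knockout acini with the protein were then set against wild-type acini, to ask how near to WT they lay. Of the 5 most abundant members, all but Klk1b4 differed from WT by less than their SE. Klk1 had a log2 fold change of 0.11 (SE 0.184), Klk1b5 of 0.027 (SE 0.135), Klk1b3 of 0.16 (SE 0.166) and Klk1b11 of 0.18 (SE 0.253). The values of Klk1b3 and Klk1b11 became -0.0069 and -0.10 without WT 1, and that of Klk1 was 0.27 with library totals alone, which put the median of all genes at 0.18. Others lay above WT by more than their SE. Klk1b4 (0.42, SE 0.178), Klk1b24 (0.55, SE 0.29), Klk1b26 (0.64, SE 0.284) and Klk1b9 (0.69, SE 0.557) were higher in both DD + rDKK3 libraries than in either WT library, as were Klk1 and Klk1b8. Klk1b26 depended on the WT libraries, with 0.31 without WT 1 and 1.13 without WT 2, and Klk1b24 was at 0.29 (SE 0.389) without DD + rDKK3 2. Klk1b8 (0.29, SE 0.327) and Klk1b27 (0.27, SE 0.379) differed from WT by less than their SE, and Klk1b27 was at 0.036 without WT 1 and 0.62 without WT 2.

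All 10 members were higher than in WT, with a median log2 fold change of 0.28 against 0.017 over all genes, of which 51.6% were higher. The median was 0.17 without WT 1, where Klk1b3 and Klk1b11 were below WT, 0.56 without WT 2 and 0.43 with library totals alone. The groups did not overlap for 6 members, as was the case in this direction for 27.9% of all genes. The edgeR test called 0 members and 0.0475% of all genes, with 1 member and 15.3% of all genes at an unadjusted p under 0.05. DESeq2 called 0 members, beside 1.66% of the 4452 genes to which it gave an adjusted p, and it gave none for 7 members. Limma-voom called 0. Here too the values were known when the members were chosen, and nothing is read from the counts.

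**Figure D2:**
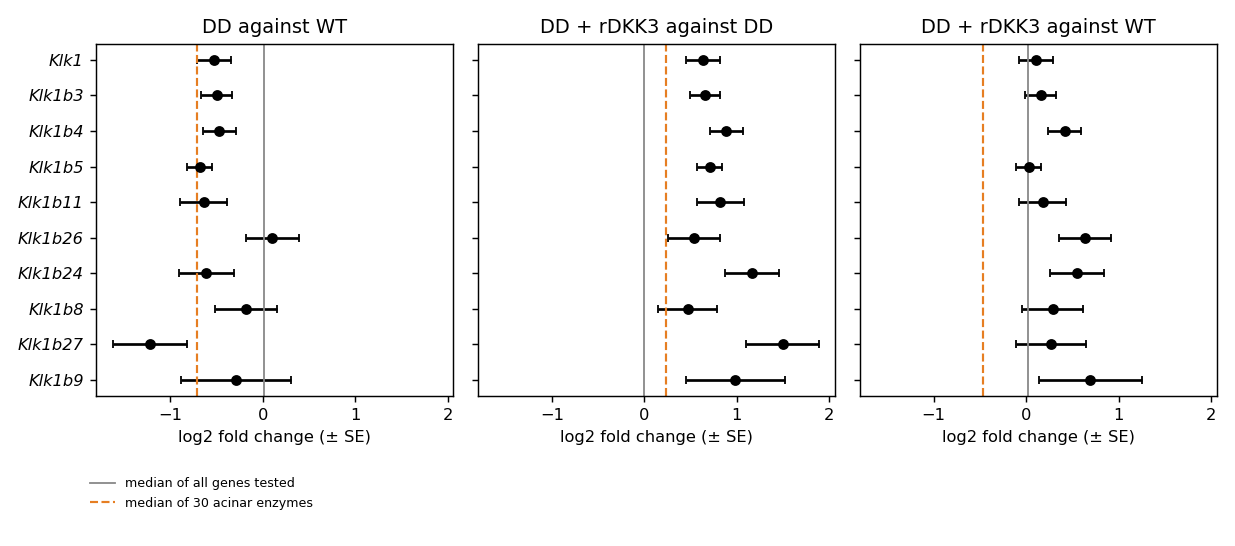
Log2 fold change of each member in the 3 comparisons, with bars of ± 1 SE from the edgeR model. The grey line is the median of all genes tested and the dashed line the median of 30 acinar enzymes (-0.71, 0.23 and -0.46 from left to right). In the left panel 9 of 10 members lie left of 0, and in the other panels all 10 lie to the right of the dashed line.

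The members were then set against the other secretory products of the same cells. The 30 acinar digestive enzymes and secretory proteins took 20.75% and 18.43% of library counts in WT, 16.77% and 14.52% in DD, with 19.03% and 16.23% in DD + rDKK3. In DD against WT, 30 of 30 had a lower value, with a median log2 fold change of -0.71. Of these, edgeR called 0, with 12 at an unadjusted p under 0.05, DESeq2 called 5 (among them Cpb1, Pnliprp1, Amy2b and Rnase1) and limma-voom 1 (Amy2b), these enzymes being named after their values were seen. Klk1, at -0.53, was close to that median, with 8 of the 30 enzymes at a higher value. In DD + rDKK3 against DD the enzymes had a median of 0.23 (28 higher, 0 called by edgeR or the other tools, 1 at an unadjusted p under 0.05), and 3 of 30 had a value above the 0.64 of Klk1. In DD + rDKK3 against WT, 29 of 30 enzymes were lower, with a median of -0.46, and 1 of 30 was above Klk1. There edgeR called 0 (6 at an unadjusted p under 0.05) and limma-voom 0. DESeq2 called 2 (Prss3 and Amy2b) and gave no adjusted p for 4. Over all genes, in the order of these comparisons, 8.26%, 1.98% and 15.3% had an unadjusted p under 0.05 in edgeR. DESeq2 called 0.601%, 0.0339% and 1.66% of its genes (13309, 14738 and 4452 with an adjusted p).

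Scaled to the enzymes rather than to the library, Klk1 overlapped between WT and DD. Its counts were 0.9324% and 1.271% of the enzyme counts in WT, 1.117% and 1.069% in DD, with 1.353% and 1.601% in DD + rDKK3. Both DD libraries lay between the WT libraries, and both DD + rDKK3 libraries lay above the other 4. The means were 1.102% ± 0.24, 1.093% ± 0.0337 and 1.477% ± 0.176 (SD, n = 2 each). The 9 copies summed were at 0.06779% ± 0.0224 in WT, 0.06776% ± 0.00409 in DD but 0.09849% ± 0.0173 in DD + rDKK3. On this scale DD did not stand apart from WT, while DD + rDKK3 was above DD on both scales.

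**Figure D3:**
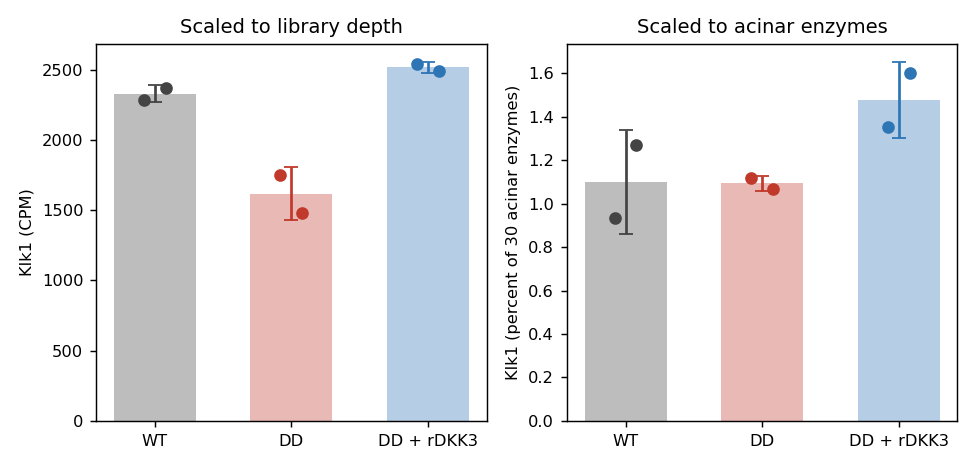
Klk1 in CPM (left) and as a percent of the counts of 30 acinar enzymes (right). Bars are means, points are the 2 libraries of each group and error bars are ± 1 SD. DD is lowest on the left (1617 CPM), whereas on the right WT (1.102%) and DD (1.093%) overlap and DD + rDKK3 (1.477%) is higher.

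The ratio of the copies to Klk1 differed little between groups. Summed, the 9 copies had 5.57% and 6.58% of the Klk1 counts in WT, 5.807% and 6.607% in DD, with 6.376% and 6.913% in DD + rDKK3. The groups overlapped in all 3 comparisons, and the highest library was 1.24 times the lowest. The group means were 6.075% ± 0.714, 6.207% ± 0.566 and 6.645% ± 0.38 (SD, n = 2 each).

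Gene by gene, the ratio was steadiest for Klk1b5 and Klk1b3. Klk1b5 stayed between 1.43% (DD 1) and 1.738% (WT 1) of Klk1, a range of 1.22 times, and Klk1b3 between 1.643% (WT 1) and 2.114% (DD 2), a range of 1.29 times. For Klk1b5, both DD libraries (1.43% and 1.582%) were nonetheless below both WT libraries (1.738% and 1.609%). Its DD + rDKK3 libraries were at 1.543% and 1.609%. Klk1b4 ranged from 1.067% to 1.514% (1.42 times), and Klk1b11 from 0.4775% in WT 1 to 0.7469% in WT 2 (1.56 times), its whole range within WT. For Klk1b4 and Klk1b24, both DD + rDKK3 libraries had a higher ratio than the other 4, with means of 1.401% ± 0.16 for Klk1b4, against 1.129% ± 0.0882 in WT and 1.173% ± 0.0493 in DD.

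Klk1b26 had the widest range. It was at 0.314% and 0.5394% of Klk1 in WT, 0.5648% and 0.7892% in DD, with 0.5525% and 0.6941% in DD + rDKK3. All 4 knockout libraries were above both WT libraries, and the highest was 2.51 times the lowest. The exact (Clopper-Pearson) 95% intervals of those extremes, 0.246% to 0.395% in WT 1 and 0.683% to 0.907% in DD 2, did not overlap. The intervals of WT 2 (0.464% to 0.624%) and DD 1 (0.491% to 0.647%), however, did overlap. These intervals hold only the error of counting, because reads without molecular identifiers are not independent molecules.

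Klk1b27 was lowest in DD, at 0.06215% and 0.04759% of Klk1, against 0.07312% and 0.1067% in WT and 0.09762% and 0.106% in DD + rDKK3. Both DD libraries lay below the other 4. Its counts were few, and the counting intervals of its lowest and highest single libraries overlapped, as they did for Klk1b8 and Klk1b9.

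**Figure D4:**
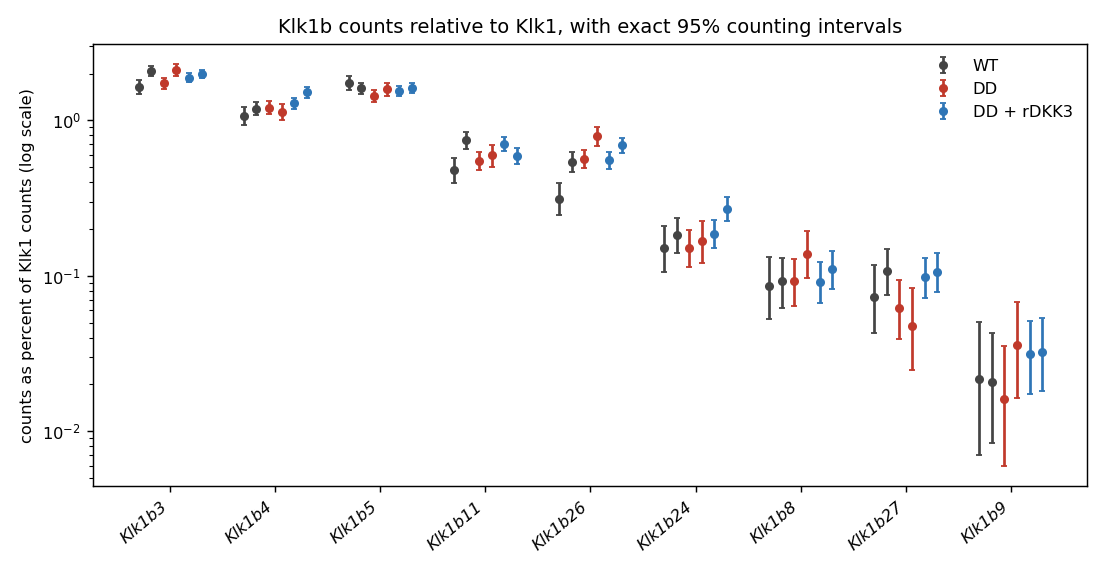
Counts of each copy as a percent of Klk1 counts in the 6 libraries, on a log scale, with exact 95% counting intervals. Klk1b5 and Klk1b3 stay within 1.22 and 1.29 times, whereas Klk1b26 runs from 0.314% in WT 1 to 0.7892% in DD 2.

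Among the 5 copies with at least 500 counts in all, the order of the range was the reverse of the order of the share of 50-base windows found in Klk1. Klk1b5, with 12.7% of its windows in Klk1, had the narrowest range, then came Klk1b3 (10.1%), Klk1b4 (7.11%) and Klk1b11 (6.63%), and Klk1b26, which shares no window, had the widest. Klk1b24, below that cutoff with 410 counts, did not follow the order. It shared 6.88% of its windows, more than Klk1b11, but had a wider range (1.8 against 1.56 times). This order was noticed after the values were seen, and the part that shared reads play in it was not tested. It held for exactly shared windows and not for identity of the coding sequence, by which Klk1b4 (89.14%) is nearer to Klk1 than Klk1b3 (88.76%). Nor did it hold for windows within 2 mismatches of Klk1 (33.9% for Klk1b4, 22.7% for Klk1b3). Total counts fell nearly in the same order (Klk1b3 4087, Klk1b5 3362, Klk1b4 2704, Klk1b11 1328, Klk1b26 1250), and their part was not tested either.

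**Figure D5:**
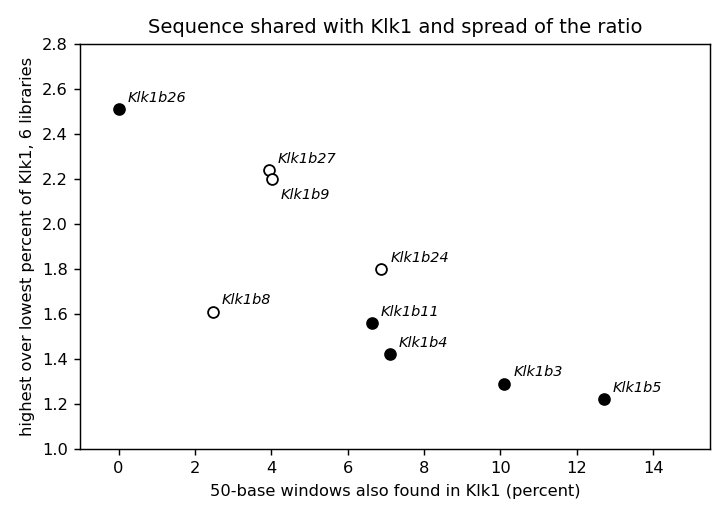
For each copy, the percent of its 50-base windows found in the Klk1 transcript (horizontal) and its highest percent of Klk1 divided by its lowest over the 6 libraries (vertical). Filled points have at least 500 counts in all. They run from Klk1b26 (0% and 2.51) to Klk1b5 (12.7% and 1.22), and the open points, with fewer counts, scatter more.

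The substrates, receptors and inactivating enzymes of the kinin system were looked at as the partners of Klk1. Of 18 genes listed, 13 could be tested, and the plasma kallikrein gene Klkb1, F12, Serpina3c and Ren1 were among those too low. The edgeR test called 0 in each comparison. Against WT, 5 were higher in DD and 8 lower (median log2 fold change -0.17, 3 at an unadjusted p under 0.05). In DD + rDKK3 against DD, 4 were higher and 9 lower (median -0.11, 2 at an unadjusted p under 0.05). In DD + rDKK3 against WT, 6 were higher and 7 lower (median -0.048, 5 at an unadjusted p under 0.05). DESeq2 called 0, 0 and 2 of them (Kng2 and Cpm in the last), and limma-voom 0. DESeq2 gave no adjusted p for 3, 0 and 8 of the 13. Over all genes, 8.26%, 1.98% and 15.3% had an unadjusted p under 0.05 in edgeR. DESeq2 called 0.601%, 0.0339% and 1.66% of its genes (13309, 14738 and 4452 with an adjusted p).

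The kininogen gene Kng2, a source of the Klk1 substrate, was at 111.7 and 93.91 CPM in WT, 59.3 and 76.9 in DD, with 63.33 and 64.81 in DD + rDKK3. Both knockout groups lay below WT, with a log2 fold change in DD of -0.59 (SE 0.18, adjusted p = 0.586 in the edgeR model), and both DD + rDKK3 libraries lay between those of DD. The next genes, Kng1, Bdkrb2 and Bdkrb1, were picked for their roles after their values were seen. The other kininogen gene, Kng1, was near the floor, at 0.1614 to 0.9994 CPM. The bradykinin receptor gene Bdkrb2 was at 1.474 and 4.495 CPM in WT, and its knockout libraries lay between these values. Bdkrb1, the inducible receptor, was highest in DD 2 (1.705 CPM) and DD + rDKK3 2 (1.129 CPM), the 2 libraries with the highest fibroblast markers, and was at 0.1405 to 0.393 CPM in the others. The part of those cells in it was not tested.

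Among enzymes that cut kinins or similar peptides, Cpm, a membrane carboxypeptidase, was at 30.45 and 28.59 CPM in WT, 38.24 and 36.21 in DD, with 44.73 and 52.65 in DD + rDKK3, a log2 fold change of 0.39 (SE 0.147, edgeR adjusted p = 1) over DD and 0.72 (SE 0.149, edgeR adjusted p = 0.321) over WT. Dpp4, a dipeptidyl peptidase of the cell surface, was at 8.056 and 10.18 CPM in WT, 6.152 and 4.879 in DD, with 5.07 and 4.464 in DD + rDKK3, with log2 fold changes against WT of -0.73 (SE 0.241, edgeR adjusted p = 0.586) and -0.94 (SE 0.243, edgeR adjusted p = 0.321). Egf, whose product is the ligand of the Klk1b9 protein, was at 2.652 and 2.88 CPM in WT, 1.562 and 1.646 in DD, with 3.855 and 2.151 in DD + rDKK3 (log2 fold change 0.90 over DD, SE 0.366, edgeR adjusted p = 1).

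Regulators known for acinar genes or for kallikreins did not pass the test either. Of 10 acinar transcription factors, 8 were higher in DD than in WT, 9 higher in DD + rDKK3 than in DD and 9 higher in DD + rDKK3 than in WT, with medians of 0.25, 0.087 and 0.25. With edgeR, 0 were called in each comparison (0, 0 and 2 at an unadjusted p under 0.05, beside 8.26%, 1.98% and 15.3% of all genes). DESeq2 and limma-voom also called 0, but DESeq2 gave no adjusted p for 4 of the 10 in DD + rDKK3 against WT. Ptf1a, which drives the acinar programme, was at 118.7 and 219.9 CPM in WT, 242.3 and 209 in DD, with 263.8 and 284.9 in DD + rDKK3 (log2 fold change over DD 0.28, SE 0.277, edgeR adjusted p = 1). Xbp1, which serves the secretory pathway, was at 1376 and 1055 CPM in WT and 1010 and 775.5 in DD (log2 fold change -0.45, SE 0.225, edgeR adjusted p = 0.586).

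Since androgen and glucocorticoid are known regulators of kallikrein genes and all cultures received dexamethasone, 8 genes for steroid receptors and their usual targets were also read. In DD + rDKK3 against DD, 8 of 8 were higher (median log2 fold change 0.28), and in the other comparisons 4 of 8 and 7 of 8 were. Over all genes, 51.7% were higher in DD against WT, 49.5% in DD + rDKK3 against DD and 51.6% in DD + rDKK3 against WT. In that order the edgeR test called 0, 0 and 0. At an unadjusted p under 0.05 there were 1, 1 and 2, beside 8.26%, 1.98% and 15.3% of all genes. DESeq2 called 0, 0 and 1 (Fkbp5), beside 0.601%, 0.0339% and 1.66% of its genes. It gave no adjusted p for 1, 0 and 5 of the 8, and limma-voom called 0. Zbtb16 was at 16.8 and 21.28 CPM in WT, 18.27 and 14.87 in DD, with 27.67 and 24.36 in DD + rDKK3 (log2 fold change over DD 0.65, SE 0.192, edgeR adjusted p = 1). Fkbp5, in contrast, was higher in both knockout groups, at 239.8 and 271.5 CPM in WT, 399.6 and 374.7 in DD, with 364.6 and 463.9 in DD + rDKK3 (DD against WT 0.60, SE 0.187, edgeR adjusted p = 0.586). The glucocorticoid receptor gene Nr3c1 was at 43.09 to 63.52 CPM.

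Over the 6 libraries, the members differed in how closely they tracked Klk1. Pearson's r of log2 CPM with Klk1 was 0.977 for Klk1b27, 0.972 for Klk1b5, 0.929 for Klk1b4, 0.898 for Klk1b3, 0.869 for Klk1b24 and 0.865 for Klk1b11. It was lower for Klk1b8 (0.607), Klk1b9 (0.589) and Klk1b26 (0.304). Among 11011 protein-coding genes outside the family, those most like Klk1 were Cbx7 (r = 0.991), Fuz (0.978), Cage1 (0.969), Rnf167 (0.968) and Zfp444 (0.968). Those most like Klk1b3, the most counted copy, were Vps37c (0.985), Tbc1d25 (0.976), Dmd (0.969), Tmem106b (0.968) and Parp14 (0.964), and no gene was in both lists. With 6 libraries and so many genes searched, high values of r arise readily, and these are descriptions of likeness that share depth and libraries. Cbx7 was at 36.35 and 36.24 CPM in WT, 32.23 and 28.87 in DD, with 39.14 and 38.19 in DD + rDKK3, the same order of groups as Klk1, with a narrower range.

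The comparisons were repeated without DD 2 and DD + rDKK3 2, the 2 libraries highest in fibroblast and macrophage markers, a choice made after the data were seen. The log2 fold change of Klk1 was then -0.41 in DD against WT, 0.55 in DD + rDKK3 against DD and 0.13 in DD + rDKK3 against WT. Of the 30 fold changes of members, only that of Klk1b26 in DD against WT changed sign (-0.024).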

How the data were processed

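Per the methods, strand-specific libraries were read as paired ends of 50 bases and aligned with STAR 2.7.9a to GRCm39 with the basic GENCODE M32 annotation. The deposited values are raw counts per gene, which the authors made by summing exon overlaps in union mode, ignoring secondary alignments and without pooling replicates. Directional counting separates antisense genes, but reads shared by near-identical copies can be placed at either copy. The submitters' processing notes also name Picard 2.19.2, DESeq2 1.38.0 and R 4.2.2.

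From these counts, 92 spike-in rows with 0 counts were left out. Genes were kept by filterByExpr (minimum count 10, minimum total 15), scaled by TMM and fitted with edgeR 4.0.16 (R 4.3.3) by its quasi-likelihood test over all 6 libraries and 3 groups, which left 3 residual degrees of freedom (biological coefficient of variation 0.2148). Benjamini-Hochberg adjustment covered all 14738 genes tested, at a threshold of 0.05. SE is the absolute log2 fold change divided by the square root of F. Correlations used log2 CPM with a prior count of 2. DESeq2 1.42.0 and limma 3.58.1 (limma-voom) were alternatives. In simulated data for DD against WT (14738 genes), 24% of changed genes were called at a true log2 change of 1 and 82.8% at 2. An exact permutation test of 2 against 2 libraries cannot go below p = 0.333.

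The members and lists were chosen with earlier results of these data known. All members were named, and from each list the called genes or, where none was called, the 2 with the smallest p in each comparison. The acinar enzymes were given by counts and median, apart from those that an alternative tool called. Some genes of these lists were counted with them but are not reported here by name. TTTAAA was added to the motifs after the promoters had been read, and a planned search of protein motifs was not run. Exons, transcript lengths and windows came from GRCm39 with GENCODE M39, promoters from RefSeq, read with Python 3.11.15.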

Additional observations from a re-analysis of the deposited data

How the results depend on the processing

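With 2 libraries a group, depth was ample for Klk1 and its 5 most counted copies, but Klk1b8, Klk1b9 and Klk1b27 had at most 51 counts in a library. Counts of called genes depended on the tool and filter, whereas the members' fold changes mostly kept their direction. Over all results and alternatives, 506 tested values kept their direction and did not cross the threshold. They include those for which DESeq2 gave no adjusted p. A further 9 reversed, and 7 passed the threshold only under an alternative. The cause of these differences was not tested.

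The edgeR test called 6 genes in DD against WT, 0 in DD + rDKK3 against DD and 7 in DD + rDKK3 against WT. In that order DESeq2 called 80, 5 and 74, and the fit without a low-count filter 528, 73 and 788. Limma-voom called 3 in the last. DESeq2 called 2 members in DD against WT (Klk1 -0.53, Klk1b5 -0.69) and 1 in DD + rDKK3 against DD (Klk1 0.63), where the summed copies also passed (0.74). Without the filter 1 member was called there (Klk1b4 0.88). With library totals alone, which put the median of all genes at 0.219 for DD against WT and 0.18 for DD + rDKK3 against WT, Klk1b8 in DD against WT was 0.015, Klk1 was -0.32 and 0.27 and the members' median -0.31 and 0.43. With the stricter filter, which tested fewer members, that median in DD + rDKK3 against WT was 0.18. As a percent of all 10 members, the summed copies in DD + rDKK3 were 6.23% rather than 6.645% of Klk1.

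Leaving out 1 library at a time gave 2 to 6 called genes in DD against WT, 0 in DD + rDKK3 against DD and 2 to 9 in DD + rDKK3 against WT. In DD against WT, 2 genes were left without WT 1, WT 2 or DD 1. In DD + rDKK3 against WT, 2 were left without WT 1 or WT 2 and 3 without DD + rDKK3 1. In DD against WT the ranges were -0.37 to 0.011 for Klk1b8, -0.77 to 0.13 for Klk1b9 and -0.23 to 0.59 for Klk1b26, in DD + rDKK3 against DD 0.28 to 0.65 for Klk1b8 and 0.57 to 1.47 for Klk1b9, and in DD + rDKK3 against WT 0.29 to 0.78 for Klk1b24, -0.0069 to 0.38 for Klk1b3 and -0.10 to 0.59 for Klk1b11. Without both second knockout libraries, a setting added after the data were seen, 14 genes were called in DD against WT and Klk1b26 was -0.024.

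The replicate numbers were not treated as pairs. The deviations of same-numbered libraries correlated at -0.387 (WT and DD), -0.247 (WT and DD + rDKK3) and 0.65 (DD and DD + rDKK3) over 14738 genes. Same-numbered DD and DD + rDKK3 samples have matching titles, but their labelled ages differ and no label names a shared animal. With the replicate number as a block over all libraries, 7, 0 and 5 genes and 0 members were called. With a block for the knockout pairs alone, 20 genes were called in DD against WT and 15 in DD + rDKK3 against WT, and Klk1b26 in DD against WT was -0.042. With the WT numbers crossed, a setting added after the data were seen, the block called 296, 29 and 566 genes, and 1 member each in DD against WT (Klk1b5 -0.68) and DD + rDKK3 against DD (Klk1b4 0.89).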
